A study of Mus musculus with 42 samples.

Results

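The 8 adrenergic receptor genes *Adra1a*, *Adra1b*, *Adra1d*, *Adra2a*, *Adra2b*, *Adra2c*, *Adrb1* and *Adrb3* were followed across liver, muscle and visceral fat of female C57BL/6 mice. They were chosen by gene name, with every non-control probe of the array that carries one of these names, which gave 13 of 41174 probes and 8 of 27745 gene names. The family was taken up because *Adra2a* showed the largest increase in *Akt1*+/- liver, so the genotype differences of the family in liver, and for *Adra2a* their change with age, are given as a description, with no test. *Akt1* encodes a kinase of the insulin/IGF-1 pathway, and the study compared mice that lack 1 of its copies in all cells with wild-type (Wt) littermates. The groups were Wt and *Akt1*+/- mice at 8 weeks and at 35 weeks by the labels (the study's methods give a higher age for the older mice), untreated as far as the labels say. Of the 42 arrays, 14 held each tissue, and a group had 3 arrays in the younger and 4 in the older mice. The labels do not say which arrays came from the same mouse.

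Adrenergic receptors are the cell-surface receptors of noradrenaline and adrenaline. The α1 subtypes (*Adra1a*, *Adra1b* and *Adra1d*) couple to Gq and raise intracellular calcium, which in hepatocytes drives glycogen breakdown. The α2 subtypes (*Adra2a*, *Adra2b* and *Adra2c*) couple to Gi and lower cyclic AMP, and on fat cells they restrain lipolysis. The β subtypes (*Adrb1* and *Adrb3*) couple to Gs and raise cyclic AMP, and *Adrb3* is known as the receptor that drives lipolysis in rodent adipocytes.

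The family was chosen through an α2 gene, and the 250 bases before the start of each of the 3 α2 genes are shown so that their promoters can be set side by side. The sequences are RefSeq's, on GRCm38.p6, 5′ to 3′ on the gene's strand. They lie at chr19:54045009-54045258 (plus strand) for *Adra2a*, chr2:127362929-127363178 (plus strand) for *Adra2b* and chr5:35278316-35278565 (plus strand) for *Adra2c*. Capitals mark matches, on either strand, to the TATA box (TATAAA), the GC box (GGGCGG), the cyclic AMP response element (TGACGTCA), the core of that element (TGACG, which the element contains) and a FoxO site (TGTTTAC).
Adra2a: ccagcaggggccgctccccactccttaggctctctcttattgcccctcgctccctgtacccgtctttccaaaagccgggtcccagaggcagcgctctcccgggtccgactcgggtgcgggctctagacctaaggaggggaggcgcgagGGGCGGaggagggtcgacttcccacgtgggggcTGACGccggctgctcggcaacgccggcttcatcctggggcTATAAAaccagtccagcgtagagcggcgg
Adra2b: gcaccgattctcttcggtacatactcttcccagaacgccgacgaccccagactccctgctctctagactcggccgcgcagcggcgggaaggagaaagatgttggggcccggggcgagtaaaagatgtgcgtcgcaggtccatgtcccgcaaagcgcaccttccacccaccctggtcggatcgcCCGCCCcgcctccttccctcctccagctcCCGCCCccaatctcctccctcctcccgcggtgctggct
Adra2c: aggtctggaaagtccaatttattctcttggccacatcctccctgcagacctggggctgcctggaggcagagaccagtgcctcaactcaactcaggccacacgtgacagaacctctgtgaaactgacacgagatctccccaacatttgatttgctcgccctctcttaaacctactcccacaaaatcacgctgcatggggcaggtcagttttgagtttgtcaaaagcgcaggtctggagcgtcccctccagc
The *Adra2a* window held a TATA box that begins 29 bases before the start, the response element core at 69 bases and a GC box at 102 bases. The *Adra2b* window held 2 GC boxes, at 38 and 67 bases, and the *Adra2c* window held none of the 5 motifs. Of 32851 RefSeq windows of the same length, 12.4% held the TATA box, 17.8% the core, 1.55% the full element, 32.7% the GC box and 3.17% the FoxO site. These are matches of letters in this window only. RefSeq windows were also found for *Adra1b* (2 starts) and *Adrb1* (1 start).

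Levels below are log2 intensities relative to the 75th percentile of the array, so that 0 is that percentile and a difference of 1 is a doubling. A probe's level can be compared between samples but not with the level of another probe. The labels held up against the arrays: *Akt1* itself was at 60.8 to 70.7% of the Wt level in the 6 tissue and age pairs by its brighter probe, and the summed hepatocyte, muscle fibre and adipocyte markers were highest in liver, muscle and fat. The 75th percentile ranged from 282 to 840 intensity units and 57.2 to 69.2% of probes were well above background. In liver, no slide held both genotypes, and at 35 weeks none did in any tissue, and genotype there cannot be told apart from slide. In fat at 35 weeks each genotype also had a scan day of its own. No scan day held the same tissue at both ages, so age and scan day cannot be told apart. No slide held Wt arrays of more than 1 tissue, so tissue and slide cannot be told apart in the Wt comparisons. In whole tissue, fewer cells of a type and less RNA per cell cannot be told apart.

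*Adra2a*, the α2A receptor that restrains cyclic AMP, was measured by 3 probes. They lie on mm8 at chr19:54102122-54102181 (A_51_P434567), chr19:54102182-54102241 (A_52_P67493) and, further upstream, chr19:54100797-54100856 (A_51_P423000). The level of the brightest probe, A_51_P434567, was −1.67, −2.75 and −3.85 in the 3 Wt livers at 8 weeks. It was 0.60, 1.22 and 1.66 in the 3 *Akt1*+/- livers of that age. The *Akt1*+/- livers were all higher, and the lowest of them lay above the highest Wt liver. At 35 weeks the Wt livers had levels of −1.22, −1.52, −0.36 and −2.11. The *Akt1*+/- livers had 1.56, −0.94, −0.09 and 1.18. Here the groups overlapped, since the *Akt1*+/- array at −0.94 lay below the Wt array at −0.36.

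The *Akt1*+/- minus Wt difference of group means was 3.91 at 8 weeks, a 15.1-fold difference, and 1.73 at 35 weeks, a 3.32-fold difference, with 2.82 over both ages (7.07-fold, and 2.55 to 3.09 on the log2 scale when each array was left out in turn). The other probes gave 3.83 and 3.78 at 8 weeks and 1.82 and 1.74 at 35 weeks. The levels of the 3 probes had Pearson correlations of 0.969 to 0.996 over the 14 liver arrays, which share their RNA and their scaling. Probe A_51_P423000 was dim, and only 1 of 3 Wt livers at 8 weeks was well above background. Its genotypes did not overlap at either age. That held for 0.849% of all probes tested in liver in this direction, from which nothing is read, since these values chose the family. The values behind these differences led to the choice of the family, so their change between the ages is not tested. The age difference in liver, from the same values, was 0.36 for A_51_P434567 and is given as a description.

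**Figure D1:**
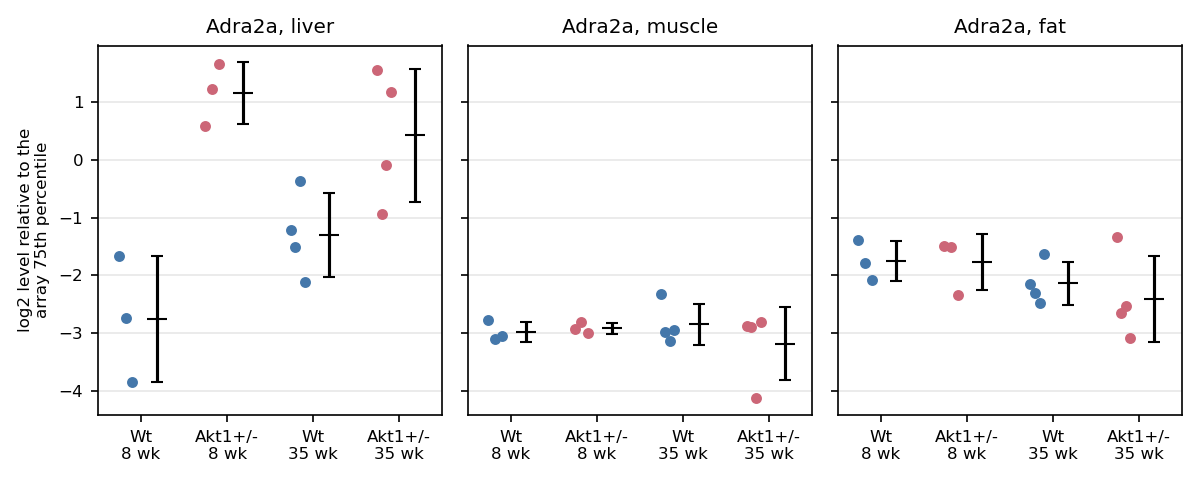
Level of *Adra2a* (probe A_51_P434567, log2 relative to the array's 75th percentile) on each array, by tissue, genotype and age. Points are arrays (Wt blue, *Akt1*+/- red), bars are the mean and SD, and the 3 *Akt1*+/- livers at 8 weeks lie between 0.60 and 1.66, above all 3 Wt livers.

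In muscle the same probe varied little, with means of −2.98 ± 0.18 (SD, n = 3) and −2.92 ± 0.09 (n = 3) in Wt and *Akt1*+/- mice at 8 weeks and −2.85 ± 0.36 (n = 4) and −3.18 ± 0.63 (n = 4) at 35 weeks. The lowest array, at −4.13, was the *Akt1*+/- replicate 3 at 35 weeks, and the other 13 lay between −3.13 and −2.33. In fat the means were −1.75 ± 0.35 and −1.78 ± 0.48 at 8 weeks and −2.14 ± 0.37 and −2.40 ± 0.75 at 35 weeks, in the same order. The genotypes overlapped in both tissues at both ages. The genotype difference over both ages was −0.14 in muscle (95% interval −0.58 to 0.30, adjusted p = 0.740, limma) and −0.14 in fat (−0.71 to 0.42, adjusted p = 0.797). Wt muscle lay below Wt fat, with a muscle minus fat difference of −0.97 (adjusted p = 0.0107) for A_51_P434567 and −1.10 (adjusted p = 0.00246) for A_52_P67493, whereas A_51_P423000 gave −0.09 (95% interval −0.66 to 0.48). With the 35 week arrays alone the first 2 did not pass (adjusted p = 0.151 and 0.0540), nor did they with normexp background correction and quantile scaling (0.112 and 0.0646). By A_51_P434567 and A_52_P67493, Wt liver lay between muscle and fat at 8 weeks. By the dim A_51_P423000 it was the lowest then (−5.77, against −4.88 in muscle and −4.39 in fat). At 35 weeks Wt liver was above both by each probe, and *Akt1*+/- liver was above all groups of the other tissues at both ages by its mean.

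*Adra2b*, the α2B receptor, was dim, with 1 probe (A_51_P228146, chr2:127055730-127055789 on mm8). Its levels in liver were −4.42, −4.14 and −3.79 in Wt and −4.37, −4.32 and −4.36 in *Akt1*+/- mice at 8 weeks. At 35 weeks they were −3.77, −3.64, −3.61 and −3.54 in Wt and −2.95, −2.93, −2.83 and −3.07 in *Akt1*+/- mice. The genotypes overlapped at 8 weeks, and at 35 weeks all 4 *Akt1*+/- livers lay above all 4 Wt livers, as they did for 8.01% of all probes tested in liver. Summed pancreas markers did not overlap either (0.638 to 0.749 in *Akt1*+/- against 0.490 to 0.591 in Wt livers, 6 markers, 2 of them on no array of these groups well above background), and their part was not tested. The rise from 8 to 35 weeks in liver was 0.94 over both genotypes (95% interval 0.74 to 1.14, adjusted p = 2.64e-05, limma). It was 0.20 (adjusted p = 0.00224) with normexp background correction and quantile scaling. The genotype difference was −0.24 at 8 weeks and 0.69 at 35 weeks, and their difference of 0.93 (95% interval 0.53 to 1.33, adjusted p = 0.0542) missed 0.05. It did not pass in 22 of 24 alternatives, over which it ran from 0.23 to 1.08 with an adjusted p (limma) of up to 0.339. The 2 in which it passed were the fit with 1 probe per gene (0.0453) and that without the Wt replicate 1 at 8 weeks (0.0249).

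In muscle *Adra2b* was barely detected at 8 weeks. The probe was well above background on 1 of 6 arrays then and on 7 of 8 at 35 weeks. The Wt levels were −5.47, −6.17 and −6.01 at 8 weeks and −4.34, −4.84, −4.84 and −2.82 at 35 weeks. The *Akt1*+/- levels were −6.19, −5.89 and −5.94, then −4.61, −4.73, −3.95 and −5.14. Every array at 35 weeks lay above every array at 8 weeks. The probe entered the fit only through the older arrays, where it is higher, so its age difference of 1.54 is a description with no test. In *Akt1*+/- muscle, where no array was above background at 8 weeks, the level was at least 1.78-fold higher at 35 weeks. The difference in muscle was 0.20 when the spots were corrected with normexp and quantile scaled. In fat its levels ran from −5.63 to −4.31 with no difference past the threshold for age (0.17, adjusted p = 0.465). Wt liver was above Wt muscle by 1.17 and above Wt fat by 1.16, while the muscle minus fat difference was −0.01 (95% interval −0.45 to 0.43). With the 35 week arrays alone, liver and muscle did not differ past 0.05 (adjusted p = 0.0660).

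*Adra2c*, the α2C receptor, was measured by 1 probe (A_52_P428345, chr5:35598047-35598106 on mm8), and had the reverse tissue pattern. It was well above background on all 14 muscle and all 14 fat arrays and on 1 of 14 livers. That liver was the Wt replicate 1 at 8 weeks, at −4.03, whereas the other 13 lay between −7.91 and −7.07. The same array had the highest *Adra2a* level of its group, −1.67 by A_51_P434567. At 35 weeks the Wt level was at least 2.47-fold higher in muscle and at least 2.54-fold higher in fat than in liver. The same bounds in *Akt1*+/- mice were 3.73-fold and 3.10-fold. Muscle and fat means lay from −4.10 to −3.40 in all 8 groups and did not differ in Wt mice beyond their spread (−0.20, 95% interval −0.91 to 0.52). Neither age nor genotype passed in muscle or fat.

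**Figure D2:**
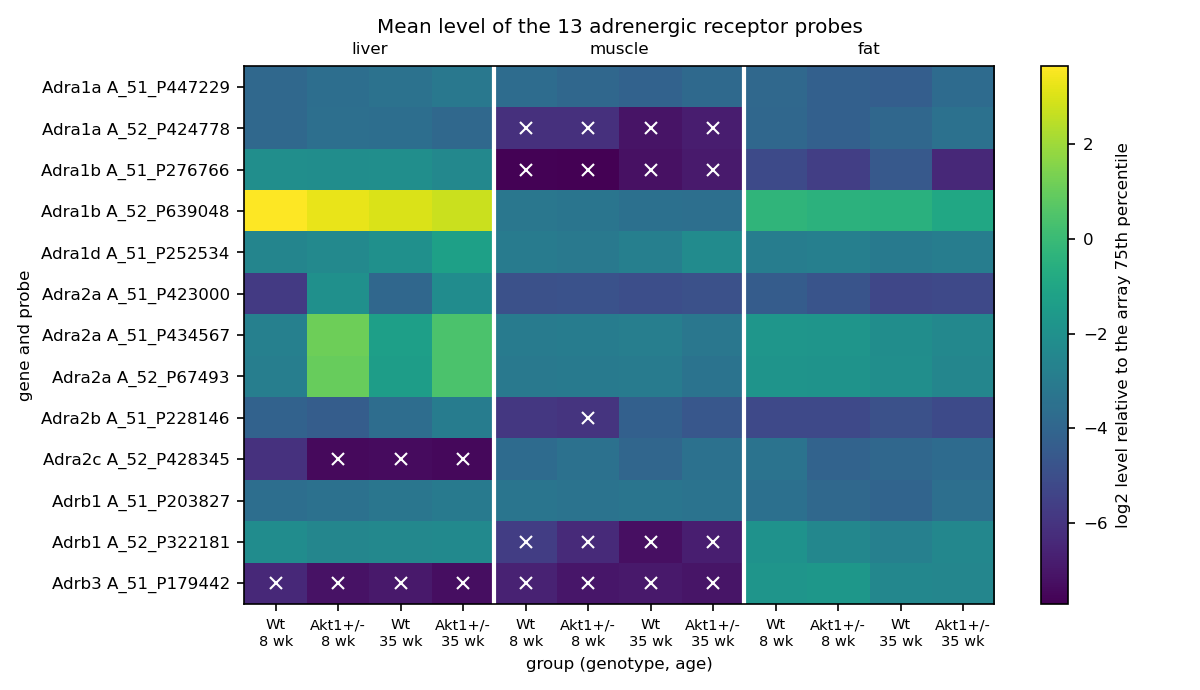
Mean level of each of the 13 probes (rows, gene and probe) in the 12 groups (columns, by tissue, genotype and age), as colour on the log2 scale relative to the array's 75th percentile. White crosses mark groups with no array well above background. *Adra1b* is brightest in liver (3.65 in Wt at 8 weeks by A_52_P639048), *Adrb3* is seen in fat alone, and *Adra2c* in muscle and fat.

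Of the α1 genes, *Adra1b* is the receptor known for its high level in rodent liver. Its probe A_52_P639048 (chr11:43618735-43618794 on mm8) read 3.69, 3.48 and 3.78 in Wt livers and 3.66, 3.14 and 2.99 in *Akt1*+/- livers at 8 weeks. At 35 weeks it read 2.91, 3.07, 2.85 and 3.17 in Wt and 2.46, 3.06, 2.57 and 2.90 in *Akt1*+/- livers. The genotype difference in liver was −0.38 at 8 weeks and −0.25 at 35 weeks. Its change of 0.13 did not pass (95% interval −0.42 to 0.68, adjusted p = 0.882, limma). The fall with age was −0.59 in liver (95% interval −0.86 to −0.31, adjusted p = 0.00416, limma). It was −0.30 in muscle (adjusted p = 0.0470), a value that failed to pass in 14 of 24 alternatives (also when any array but Wt replicate 2 at 8 weeks or replicate 4 of either genotype at 35 weeks was left out), and −0.37 in fat (adjusted p = 0.378). The second probe, A_51_P276766 (chr11:43678802-43678861), fell by 0.13 in liver with age and did not pass (95% interval −0.43 to 0.16, adjusted p = 0.481).

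Both *Adra1b* probes had the same tissue order. By A_52_P639048, Wt liver exceeded Wt fat by 3.70 (95% interval 3.29 to 4.11) and the muscle minus fat difference was −2.99 (−3.40 to −2.58). By A_51_P276766 the liver was above fat by 2.76, and no muscle array was above background, which put Wt liver at least 9.96-fold above muscle among 8 week mice. In *Akt1*+/- mice the bound was 9.84-fold for the younger and 6.13-fold for the older animals. In liver the genotype difference over both ages was −0.32 and −0.17 by the 2 probes. In fat A_51_P276766 was lower in all 4 *Akt1*+/- than in all 4 Wt arrays at 35 weeks (−7.27 to −6.04 against −5.84 to −2.95), with 1 of 4 and 3 of 4 arrays well above background. Such non-overlap in this direction was found for 5.42% of all probes in fat. The probe entered the fit in fat only through its Wt groups, where it is higher. Its genotype difference over both ages of −1.16 is thus a description with no test, and it ran from −1.37 to −0.14 over the alternatives. That of A_52_P639048 was −0.31 (limma, adjusted p = 0.578). At 35 weeks in fat, summed adipocyte markers were lower in *Akt1*+/- mice (1111 to 1364 against 1484 to 1707, 6 markers) as were fibroblast and stellate cell markers (299 to 334 against 357 to 418, 6 markers), and smooth muscle markers were higher (117 to 203 against 79.8 to 115, 5 markers). Their part in this difference was not tested, and genotype and scan day cannot be told apart there.

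*Adra1d*, the α1D receptor, best known from arteries, was above background on all 42 arrays by its probe (A_51_P252534, chr2:131237865-131237924 on mm8). In liver it read −2.71, −2.70 and −2.24 in Wt and −2.24, −2.13 and −2.69 in *Akt1*+/- mice at 8 weeks. At 35 weeks the levels were −1.60, −2.32, −1.95 and −2.15 in Wt and −0.94, −1.21, −1.56 and −1.38 in *Akt1*+/- mice. The 35 week *Akt1*+/- livers were the highest of the 14. The rise with age in liver was 0.81 (95% interval 0.50 to 1.13, adjusted p = 0.00129, limma). In muscle it rose by 0.54 (0.29 to 0.78, adjusted p = 0.00385), and in fat it differed by −0.10 (−0.27 to 0.06, adjusted p = 0.362). Both rises passed in all 24 alternatives each, and with normexp and quantile scaling they were 0.46 in liver and 0.21 in muscle.

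At 35 weeks all *Akt1*+/- arrays of *Adra1d* lay above all Wt arrays in liver and in muscle. In muscle the *Akt1*+/- levels ran from −2.36 to −2.04 and the Wt levels from −3.14 to −2.37. The difference at 35 weeks was 0.73 in liver and 0.60 in muscle. In muscle it had a 95% interval of 0.29 to 0.92 and an adjusted p of 0.200, and non-overlap in this direction was found for 3.24% of all probes. In liver the share was the 8.01% given above. Beside these, summed muscle fibre markers were lower in *Akt1*+/- muscle at 35 weeks (4256 to 4510 against 4618 to 4782, 6 markers) and pancreas markers higher (0.503 to 1.04 against 0.337 to 0.468, 6 markers), and in liver the pancreas markers were higher as given for *Adra2b*. Their part was not tested. In Wt mice liver was above muscle by 0.63 and above fat by 0.67, while muscle and fat differed by 0.04 (95% interval −0.20 to 0.28). At 8 weeks alone, liver and fat did not differ past 0.05 (0.35, adjusted p = 0.0846).

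**Figure D3:**
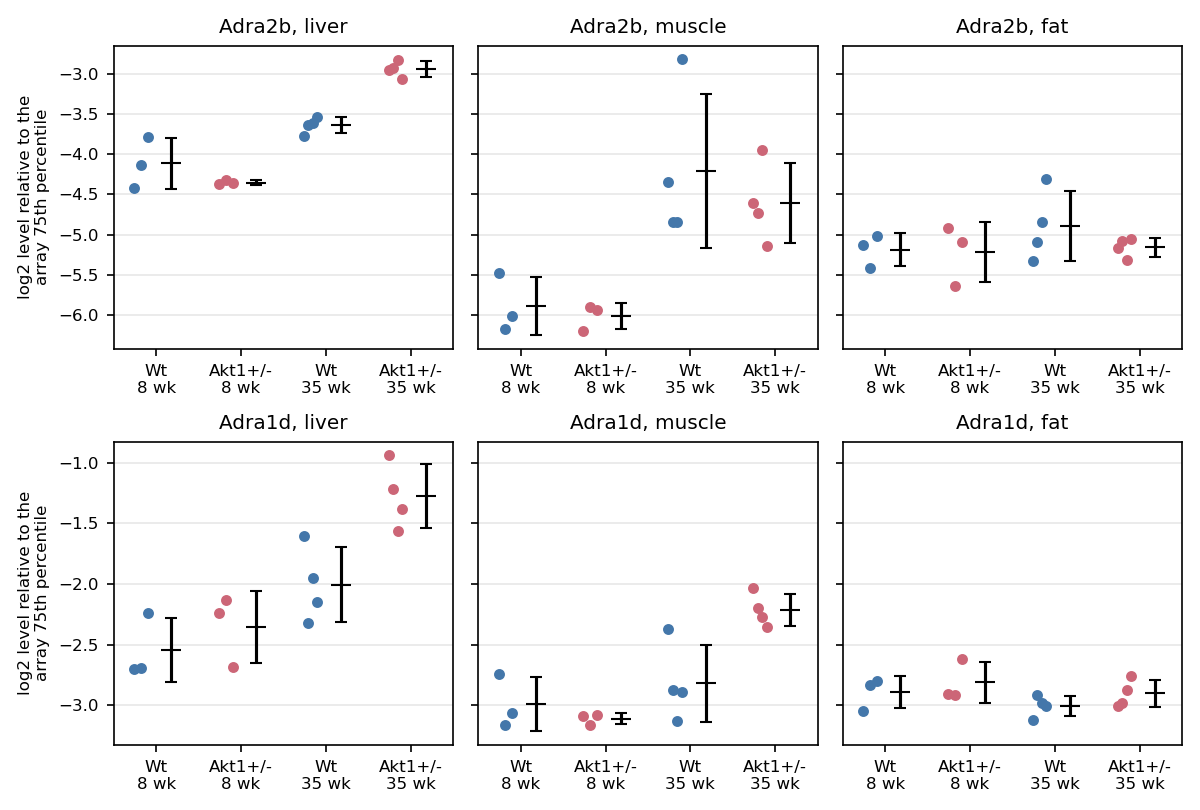
Levels of *Adra2b* (top) and *Adra1d* (bottom) on each array in the 3 tissues, on the log2 scale relative to the array's 75th percentile, with the scale of each row shared. Points are arrays (Wt blue, *Akt1*+/- red) and bars are the mean and SD. In liver and muscle most arrays at 35 weeks lie above those at 8 weeks, and in fat the ages overlap.

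*Adra1a*, the α1A receptor, gave a different picture with each of its 2 probes. By A_51_P447229 (chr14:65682001-65682060 on mm8) it was above background on all 42 arrays, between −4.50 and −2.77, and the tissue medians were −3.49 in liver, −3.96 in muscle and −4.16 in fat. By A_52_P424778 (chr14:65687286-65687345) it was detected on all liver and fat arrays and on no muscle array, which made Wt liver at least 2.85-fold higher than muscle in the younger and at least 3.55-fold in the older mice. In liver A_51_P447229 rose with age by 0.45 (adjusted p = 0.00929, limma), and A_52_P424778 did not (−0.01, 95% interval −0.47 to 0.45). The rise was 0.07 with normexp and quantile normalization (adjusted p = 0.345) and missed 0.05 with median scaling. The difference between the genotypes in liver was 0.29 and 0.01 by the 2 probes. At 8 weeks A_51_P447229 was higher in all 3 *Akt1*+/- livers (−3.67 to −3.53) than in all 3 Wt livers (−3.94 to −3.79). Among the 8 probes of the other genes tested in liver it was the 1 without overlap in this direction at 8 weeks, against 10.5% of all probes.

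Of the β genes, *Adrb3*, the β3 receptor, was measured by a probe to a splice variant (A_51_P179442, chr8:28692781-28693200 on mm8, an interval that spans a gap) and was well above background on all 14 fat arrays and on no other. In fat its levels were −1.59, −2.02 and −1.78 in Wt and −1.28, −1.46 and −2.35 in *Akt1*+/- mice at 8 weeks. At 35 weeks they were −2.47, −2.06, −1.93 and −3.42 in Wt and −2.42, −2.25, −2.44 and −2.79 in *Akt1*+/- mice. The genotypes overlapped at both ages. At 8 weeks Wt fat was at least 8.70-fold above liver and at least 12.2-fold above muscle. The bounds in the older Wt mice were 6.84-fold and 7.74-fold. In *Akt1*+/- mice the 4 bounds ran from 5.78 to 13.4-fold. The level in fat fell by 0.73 with age (95% interval −1.24 to −0.22, adjusted p = 0.0467, limma), which stayed past 0.05 in 11 of 24 alternatives. It was lost when any Wt array or *Akt1*+/- replicate 1 or 2 at 8 weeks, Wt replicate 1 at 35 weeks or any *Akt1*+/- array at 35 weeks was left out (adjusted p up to 0.116). The genotype difference in fat was 0.05 (−0.46 to 0.56, adjusted p = 0.936).

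*Adrb1*, the β1 receptor best known from the heart, also split by probe. By A_52_P322181, which the array assigns to an expressed sequence tag (chr19:56777975-56778034 on mm8), it was detected on all liver and fat arrays and on no muscle array, and Wt muscle was at least 8.15-fold below liver and at least 6.32-fold below fat at 35 weeks. Wt liver and fat differed by 0.05 (95% interval −0.39 to 0.48). By A_51_P203827 (chr19:56776002-56776061) it was detected on all 42 arrays, and muscle was above fat by 0.49 (adjusted p = 0.00117) and liver above fat by 0.35 (adjusted p = 0.0172), which turned to −0.10 with the 8 week arrays alone. The probes thus disagree on muscle. In fat A_51_P203827 read −3.63, −3.31 and −3.56 in Wt and −3.64, −4.36 and −3.67 in *Akt1*+/- mice at 8 weeks. At 35 weeks it read −4.14, −4.03, −4.16 and −3.89 in Wt and −3.66, −3.55, −3.34 and −3.63 in *Akt1*+/- mice. The *Akt1*+/- arrays were thus all lower at 8 weeks, the closest pair lying at −3.63 and −3.64, and all higher at 35 weeks. Non-overlap was found for 15.2% of probes in the first direction and 4.08% in the second. At 8 weeks 5 of 13 marker sums in fat did not overlap either: macrophage (31.1 to 40.2 in *Akt1*+/- against 22.6 to 23.6), platelet (19.5 to 64.9 against 14.6 to 18.3), bile duct (11.4 to 13.7 against 6.44 to 8.54) and mesothelium (31.6 to 45.6 against 20.1 to 29.4) markers were higher, with 5 markers each, and 6 hepatocyte markers lower (0.766 to 1.03 against 1.77 to 8.33). The bile duct and mesothelium lists share *Krt19*. At 35 weeks the 3 sums given for *Adra1b* did not overlap. Their part was not tested, and scan day differed with genotype in full at 35 weeks. The change of the genotype difference was 0.90 (95% interval 0.39 to 1.41, adjusted p = 0.0806, limma), and 0.84 (−0.06 to 1.74, adjusted p = 0.280) by A_52_P322181.

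Over the family, 4 of 11 member probes tested in liver changed with age, against 33.5% of all probes tested there (19.8% up and 13.7% down). These were *Adra2b*, *Adra1d* and *Adra1a*, which rose, and *Adra1b*, which fell, so all 4 were among the 8 probes of genes other than *Adra2a*. The liver values of *Adra2a* chose the family. In muscle 3 of 9 passed, against 30.5% (16.5% up and 14% down). These were *Adra1d*, which rose, *Adra1b*, which fell, and *Adra2b*. The last entered the fit only through its older arrays, where it is higher, so its call is a description. In fat 2 of 13 changed, against 19.8% (10.1% up and 9.71% down), and both fell. They were *Adrb3* and the dim *Adra2a* probe A_51_P423000 (−0.68, 95% interval −1.09 to −0.26, adjusted p = 0.0271), which failed to pass in 8 of 22 alternatives, among them leaving out Wt replicate 1 or 2 or *Akt1*+/- replicate 1 or 2 at 8 weeks, or Wt replicate 2 or *Akt1*+/- replicate 2 or 3 at 35 weeks. The other *Adra2a* probes differed with age in fat by −0.51 and −0.47 (adjusted p = 0.185 and 0.198). Each share over the member probes tested, in muscle with *Adra2b* counted, is close to that of all probes. In liver the 4 of 8 without *Adra2a* is above 33.5% and was not tested against it. Among the member probes tested, the median age difference was 0.40 (liver, with the *Adra2a* probes), −0.07 (muscle) and −0.11 (fat), against 0.03, 0.01 and 0.01 over all probes. Beside these, summed skeletal muscle fibre markers were higher at 35 weeks in muscle (4256 to 4782 against 3435 to 4230, 6 markers), those of fibroblasts and of nerve lower (173 to 206 against 216 to 268, 6 markers, and 1.71 to 2.42 against 2.62 to 3.49, 5 markers), and adipocyte markers lower in liver (at most 6.30 against at least 6.41, 6 markers, 3 of them on no liver array well above background). Their part in the age differences was not tested. In liver the median of all probes, in the authors' values, also rose with age within each genotype. It ran from −3.69 to −3.66 (Wt) and −3.61 to −3.56 (*Akt1*+/-) at 8 weeks, then −3.56 to −3.47 and −3.40 to −3.28. With median scaling the *Adra1a* rise in liver was 0.25 (adjusted p = 0.0957, limma), and those of *Adra2b* and *Adra1d* passed. The part of this shift in the genotype differences was not tested.

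**Figure D4:**
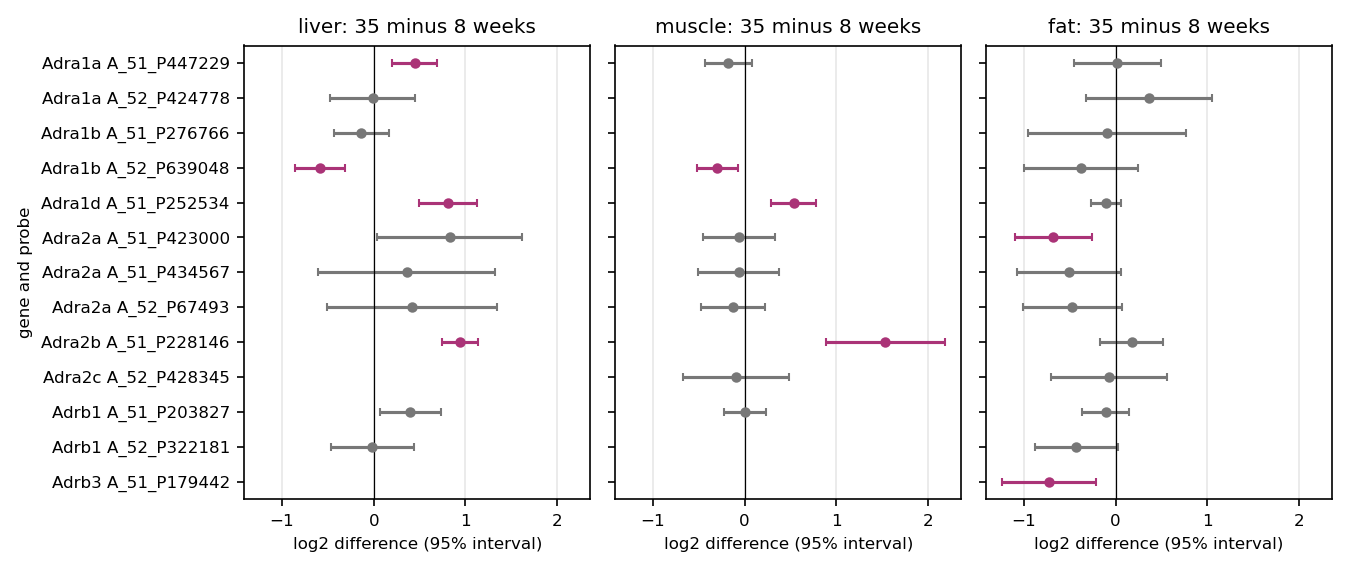
Difference between 35 and 8 weeks over both genotypes for each probe (rows) in liver, muscle and fat, on the log2 scale, with 95% intervals. Purple points passed an adjusted p of 0.05 (2 for fat, 3 for muscle with *Adra2b* counted, 4 for liver), and grey points did not. Probes too dim to test in a tissue have no point. The *Adra2a* points for liver come from the values that chose the family. *Adra2b* entered the muscle fit only through its older arrays, where it is higher. The points and intervals of both are a description with no test.

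For genotype, 0 of 9 member probes passed in muscle and 0 of 13 in fat (limma, adjusted p), against 0% and 0.546% of all probes. At an unadjusted p below 0.05, 0 did in muscle (17.7% of all probes) and 1 did in fat (18.7% of all probes), the *Adra1b* probe A_51_P276766. That probe entered the fit in fat only through its Wt groups, where it is higher, so nothing is read from it. It passed in 1 of 22 alternatives, the fit over all 42 arrays (limma, adjusted p = 0.0315), and its adjusted p ran up to 0.327. For the change of the genotype difference with age, 0 of the 8 probes of genes other than *Adra2a* passed in liver, and 0 of 9 and 0 of 13 member probes in muscle and fat (limma, adjusted p), against 0.411%, 0% and 1.27% of all probes. At an unadjusted p below 0.05 there were 1, 2 and 1, against 12.5%, 8.10% and 20.2% of all probes. At 8 weeks a slide of muscle held 3 Wt and 1 *Akt1*+/- arrays, and a slide of fat held 1 and 3. Within them the *Akt1*+/- minus Wt difference of *Adra2a* A_51_P434567 was 0.05 in muscle and 0.30 in fat, and no member probe passed in a fit with slide as a block. Of the tissue comparisons in Wt mice, 9 of 13 member probes differed between liver and muscle against 80.8% of all probes, 8 of 13 between liver and fat against 79%, and 8 of 13 between muscle and fat against 81.6%. The first 2 counts include 2 and 0 of the *Adra2a* probes, whose Wt liver values entered the choice of the family. *Adra1a* A_52_P424778, *Adra1b* A_51_P276766 and *Adrb1* A_52_P322181 were well above background on no muscle array, *Adra2c* on 1 of 14 livers and *Adrb3* in fat alone. They entered this fit only through the tissues where they are higher, so their calls against the dim tissue are a description.

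**Figure D5:**
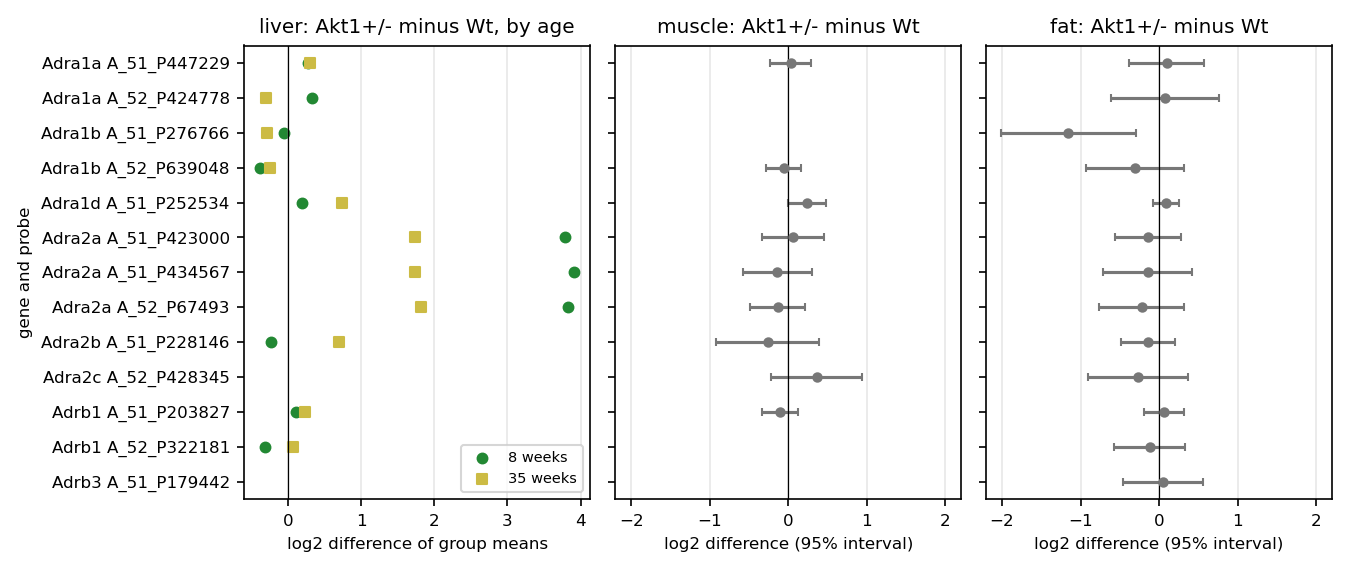
*Akt1*+/- minus Wt difference for each probe (rows) on the log2 scale. The liver panel shows the difference of group means at 8 weeks (circles) and 35 weeks (squares) as a description, and the muscle and fat panels the difference over both ages with 95% intervals. The 3 *Adra2a* probes lie at 3.78 to 3.91 and 1.73 to 1.82 in liver, and no probe passed in muscle or fat.

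In the livers at 8 weeks, where the *Adra2a* difference was widest, summed markers of hepatocytes were lower in *Akt1*+/- mice (1451 to 1669 against 1767 to 1833, 6 markers). Markers of macrophages were higher (50.2 to 55.9 against 39.9 to 46.3, 5 markers), as were those of lymphocytes (1.59 to 1.83 against 0.909 to 1.22, 6 markers). Those of bile duct (7.88 to 8.73 against 10.1 to 10.7, 5 markers) and mesothelium (0.255 to 0.624 against 0.632 to 0.941, 5 markers), whose lists share *Krt19*, were lower. These were 5 of 13 marker sums. At 35 weeks the same sums overlapped between the genotypes. Their part in the *Adra2a* difference was not tested.

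The genes most like each member over the 12 group means are given as a description. They have the highest correlations of all probes that passed the filter, over 12 points. For *Adra1b* these were *Sardh*, *Hsd3b7* and *Serpina3m* (Pearson r of 0.998, 0.997 and 0.997). For *Adrb3* they were *Gipr* (0.997), the receptor of the gut hormone GIP, *LOC436089* and *Mmp23*, and for *Adra2c* *Fgfr1* (0.995), *Snx21* and *Cspg4*. *Adra2a* was most like *Tor3a* (0.938), *Pop4* (0.908) and *Lepr* (0.900), the leptin receptor. Over the 14 liver arrays its nearest genes were *BC030440* (0.946), *Sema4b* (0.928), *Nanp* (0.913), *Pomk* (0.897) and *Psd4* (0.890). These arrays share the genotype groups by which the family was chosen. The nearest genes were *Helq* (0.970), *Fasl* and *Sts* for *Adra2b*, *Krtap16-3* (0.973), *Gsdmc* and *Tubgcp6* for *Adra1d*, *Ryr3* (0.939), *Vps41* and *Actl9* for *Adra1a*, and *Rnf212* (0.979), the array's NAP018688-001 and *Klra5* for *Adrb1*.

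Downstream of the receptors, 97 genes of 10 lists were followed, from G proteins to lipolysis and glycogen breakdown. For genotype 0 of 88 genes tested passed in muscle and 0 of 91 in fat (limma), against 0% and 0.546% of all probes. In liver, as a description, the medians of the lists lay between −0.18 (glycogen breakdown and gluconeogenesis) and 0.34 (lipolysis), against 0.02 over all probes. All 5 lipolysis genes tested were above 0 on average over both ages, among them *G0s2* (0.97), an inhibitor of the lipase *Pnpla2* (0.47). The change of their genotype difference with age was below 0 for all 5 (median −0.40, against 0.05 over all probes), and 0 passed. The G protein α subunits had 3 above and 6 below 0 and the adenylyl cyclases, which make cyclic AMP, 4 and 3. For the change of the genotype difference with age in liver, 1 of 83 passed (1.20%, against 0.411% of all probes). It was *Elovl3* (2.70, limma, adjusted p = 0.0311), a fatty acid elongase.

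With age, 22 of 83 of these genes changed in liver (10 up, 12 down, 26.5%), 30 of 88 in muscle (18 up, 12 down, 34.1%) and 14 of 91 in fat (4 up, 10 down, 15.4%), against the 33.5%, 30.5% and 19.8% of all probes. *Dbh* makes noradrenaline from dopamine. In liver it was well above background on 0 of 6 arrays at 8 weeks and on 7 of 8 at 35 weeks. The G protein subunit *Gnal* was so on 1 of 6 and 8 of 8 liver arrays. Both entered the fit only through the older arrays. They are counted among the 10 that rose, and their calls are a description. The cyclases *Adcy4* (−0.47) and *Adcy6* (−0.44) fell in liver. The Gq-type subunit *Gna11* rose in liver (0.37) and fat (0.60), and *Gnas*, the Gs subunit, fell in liver (−0.34), muscle (−0.25) and fat (−0.28). In muscle *Maob*, which breaks down monoamines, rose (1.06), and *Rgs16*, a brake on Gi and Gq signalling, fell (−1.16). In fat *Pde3b*, the phosphodiesterase through which insulin restrains lipolysis, fell by 0.60 and *Pnpla2* rose by 0.29.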

How the data were processed

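RNA of liver, muscle and visceral fat was hybridised to 1-colour Agilent arrays (42 in all). The deposited scanner files hold spot intensity values that the authors made with Agilent Feature Extraction 9.1 (background-subtracted processed signal, Cy3), and the deposited value table holds log2 values that the authors normalized, which followed log2 processed signal and have a 75th percentile near 0, with genes not centred. Spots of 1 probe were averaged, control spots and probes with outlier spots were left out, and log2 processed signal was set relative to each array's 75th percentile. A probe entered a fit if some group had 3 or more arrays on which it was well above background. In each tissue, limma 3.58.1 (R 4.3.3) was fitted to the 4 groups over all probes (genotype and age, each averaged over the other, and their interaction), and 1 fit over 42 arrays served the tissue comparisons in Wt mice. P-values were adjusted by the Benjamini-Hochberg method over all probes, with a threshold of 0.05. The labels do not say that arrays of a group came from separate extractions, so p-values measure the spread between these samples. A bound ("at least") sets the bright group's mean against the dim group's mean of, on each array, the higher of the lowest signal well above background and the probe's own. Marker sums are sums of signal relative to the 75th percentile. Pathway genes are named from the largest rises and falls of each list past the threshold (in liver by genotype, the largest differences). The members and the lists were chosen with earlier results of these data known. The number of arrays limits the precision. Alternatives were other background corrections and scalings, filters, probes, blocks, the authors' values, the methods' two-way test and each array left out. Replicate numbers did not pair the arrays at 8 weeks (correlations of deviations from −0.175 to 0.0729). At 35 weeks the correlations were 0.108 to 0.523, and each Wt array was most like the *Akt1*+/- array of its own number. There the number is also the position on the slide, so number and position cannot be told apart. The main fits leave it out, and a replicate block was among the alternatives. Slide as a block at 8 weeks was added after seeing the data.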

Additional observations from a re-analysis of the deposited data

Results flagged for a closer look

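In 6 of 78 sets, each of 1 probe in 1 group of 4 arrays, 1 array stood apart by Dixon's ratio (gap over range). Chance gives this in about 1 of 20 independent sets. These sets share arrays and hold several probes of a gene, so nothing is read from the count. In *Akt1*+/- fat at 35 weeks, replicate 1 was low for *Adra1b* A_51_P276766 (ratio 0.861, −7.27 against −6.21 to −6.04, with 1 of 4 arrays well above background) and high for *Adra2a* A_51_P423000 (0.950, −4.57 against −5.44 to −5.40). In *Akt1*+/- muscle at 35 weeks, replicate 3 was low for *Adra2a* A_51_P434567 (0.930, −4.13 against −2.91 to −2.81) and A_52_P67493 (0.863, −4.08 against −3.22 to −3.08). The same array was high for *Adrb3*, which no array of the group measured above background (0.887, −6.62 against −7.24 to −7.17). In Wt muscle at 35 weeks, replicate 1 was high for *Adra2a* A_52_P67493 (0.913, −2.55 against −3.17 to −3.12). *Adrb1* A_51_P203827 in fat was lower in all *Akt1*+/- arrays at 8 weeks and higher in all at 35 weeks, and the change of the difference was 0.90 (limma, adjusted p = 0.0806).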

How the results depend on the processing

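The count of member probes called for age in fat was 2. It was 1 with no filter on dim probes, with probes well above background on every array, with the brightest probe of each gene, with the replicate block, in 1 fit over all 42 arrays and by the methods' two-way test, and 0 to 3 when each array was left out in turn. Leaving arrays out gave 4 to 5 calls for age in liver, 2 to 3 for age in muscle, 0 to 1 for the interaction in liver (1 without the Wt replicate 1 at 8 weeks), 7 to 9 for liver against muscle and 7 to 8 for liver against fat. In the 42-array fit, 1 probe was called for genotype in fat and 1 for the interaction in fat, where the main counts were 0. With the brightest probe of each gene, 1 was called for the interaction in liver (main 0), 5 for liver against muscle and 4 for muscle against fat, and with probes above background on every array 4 in each tissue comparison, since fewer probes were tested. With the 8 week arrays alone, the liver minus fat difference turned to −0.10 for *Adrb1* A_51_P203827 and −0.015 for *Adra1a* A_51_P447229 (main 0.42), and the cause was not tested. The liver difference of *Adra2a* was 1.97 with normexp and quantile scaling, 2.70 with median scaling and 2.83 in the authors' values. With normexp and quantile scaling the tissue differences in Wt mice were smaller, for example −0.97 for *Adrb3* liver minus fat and 4.83 for *Adra1b* A_52_P639048 liver minus muscle. The age differences of *Adra2b*, *Adra1d* and *Adra1b* A_52_P639048 in liver and of *Adra1d* in muscle passed in all 24 alternatives.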
